A study of Mus musculus with 6 samples.

Results

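The nuclear genes of oxidative phosphorylation were followed in RNA-seq of 6 whole mouse livers. They were chosen by symbol: every usable row whose symbol begins with Nduf, Uqcr, Cox4i, Cox5, Cox6, Cox7, Cox8 or Atp5, or is Sdha, Sdhb, Sdhd, Cyc1 or Cycs. This gave 81 genes of 23021 usable rows. They fall into 5 core and 27 accessory subunits of complex I, 3 subunits of complex II, 8 of complex III, cytochrome c, 13 of complex IV, 16 of complex V and 8 complex I assembly factors. The block of chromosome 1 rows that opens each table was left out, because its symbols could not be relied on, so the members on chromosome 1 were not analysed here (among them Ndufs1, Ndufa10, Ndufb3 and Cox5b). The complex II subunit Sdhc is not among the chosen symbols. Ndufa11, Ndufa13, Ndufb7, Uqcr11 and Atp5d had no row among the members, so the sets by complex are not complete. Pseudogenes were dropped, 2 with symbols ending in -ps and a number and 5 ending in -ps alone. Of these, Ndufab1-ps and Atp5pb-ps had enough signal to be tested and neither passed the test.

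Per the labels, 3 libraries came from Cdkl3-/- livers and 3 from wild type livers. Both groups were C57BL/6, an inbred laboratory strain, labelled male, kept on chow and 10 months old. Cdkl3 belongs to the cyclin-dependent kinase-like family, and the design text places its knockout in the liver. The promoter or Cre line behind the knockout is not given in the sources used here, nor is it said that each library was made from its own mouse.

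Oxidative phosphorylation is carried out in the inner mitochondrial membrane. Complexes I and II pass electrons from NADH and succinate to coenzyme Q, complex III hands them to cytochrome c and complex IV to oxygen. Complexes I, III and IV pump protons, and complex V, the ATP synthase, uses the gradient to make ATP. A few subunits are encoded in mitochondrial DNA and all others in the nucleus, so a working complex needs products of both genomes. In hepatocytes the chain serves fatty acid oxidation, gluconeogenesis and urea synthesis, and liver is rich in these complexes.

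The values are FPKM, which divide the fragments on a gene by a length and by the depth of the library. That length matched the pooled exons of the gene, not 1 transcript, and levels followed GC content (both described below). Levels of different genes can therefore be set side by side only roughly. From the step size of the low values, the libraries held about 24530000, 39550000 and 26720000 reads on genes (Cdkl3-/- replicates 1 to 3) and 36030000, 48610000 and 20460000 (wild type replicates 1 to 3). A single read over a length of 1 kb then stands for 0.0206 to 0.0489 FPKM. Mitochondrial transcripts took 63.17 to 70.11% of all FPKM in the libraries labelled Cdkl3-/- and 70.47 to 73.88% in those labelled wild type. Cdkl3 itself was at 0.0761, 0.146 and 0.195 FPKM in the libraries labelled Cdkl3-/- and at 0.166, 0.0883 and 0.119 FPKM in those labelled wild type, so it did not separate the groups. Xist, the RNA of the inactive X chromosome, was at most 0.0273 FPKM in the libraries labelled Cdkl3-/- and at least 192 FPKM in those labelled wild type, while the Y-linked Ddx3y was at least 38.2 FPKM in the libraries labelled Cdkl3-/- and at most 0.207 FPKM in those labelled wild type. The labels call all 6 livers male, and genotype and these sex-linked transcripts cannot be told apart here. Cdkl3-/- replicate 1 also held 5264 FPKM of the kidney transcript Kap, against 5.72 FPKM or less elsewhere. The 11 kidney tubule markers with a row, of 15 listed, summed to 5322, 5.34 and 6.82 FPKM in Cdkl3-/- replicates 1 to 3 and to 0.439 to 1.57 FPKM in the wild type libraries, and 7 of them, Umod among them, were at 0 in at least 1 library. The summed FPKM of 8 hepatocyte markers (of 10 listed, led by Cyp3a11, Alb and Apob) was 3705 to 4746 in the libraries labelled Cdkl3-/- and 2020 to 2354 in those labelled wild type. Singly 5 of the 8 lay above wild type without overlap, while Apob, Hnf4a and Ass1 overlapped. For 7 stellate cell markers the sum was 21.7 to 32.7 FPKM in the libraries labelled Cdkl3-/- and 76.4 to 130 FPKM in those labelled wild type. Most of this was Dcn, and singly 3 of the 7 lay below wild type without overlap and 2 above (Col1a1 and Col1a2). For 10 endothelial markers the sum was 8.62 to 9.81 FPKM in the libraries labelled Cdkl3-/- and 14.3 to 17.4 FPKM in those labelled wild type. Singly 4 of the 10 lay below wild type without overlap and 3, at under 1 FPKM, above (Clec4g, Dnase1l3 and Pecam1). Over all usable rows, 24.7% lay above wild type without overlap and 8.98% below. The sums of the macrophage, bile duct and lymphocyte lists overlapped between the groups. The part of these differences in the results below was not tested, and in bulk tissue fewer cells of a type and less RNA per cell cannot be told apart.

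Many subunit genes were found at very low levels. The mean over the 6 libraries was at least 10 FPKM for 18 members, between 1 and 10 FPKM for 23 and under 1 FPKM for 40. The highest was Uqcrb, at 277 FPKM. Members listed at 0 numbered 11, 11 and 14 in Cdkl3-/- replicates 1 to 3 and 19, 23 and 18 in wild type replicates 1 to 3. In all, 29 members were at 0 in at least 1 library, 13 of them in every wild type library and 6 in every Cdkl3-/- library. Atp5k (subunit e of the ATP synthase), Ndufa2 (an accessory subunit of complex I) and Ndufv1 (the subunit that binds NADH) were at 0 in all 6 libraries. As these are genes that every respiring cell uses, a value of 0 is given here only as listed. The heat map of levels shows low and high members within each complex.

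**Figure D1:**
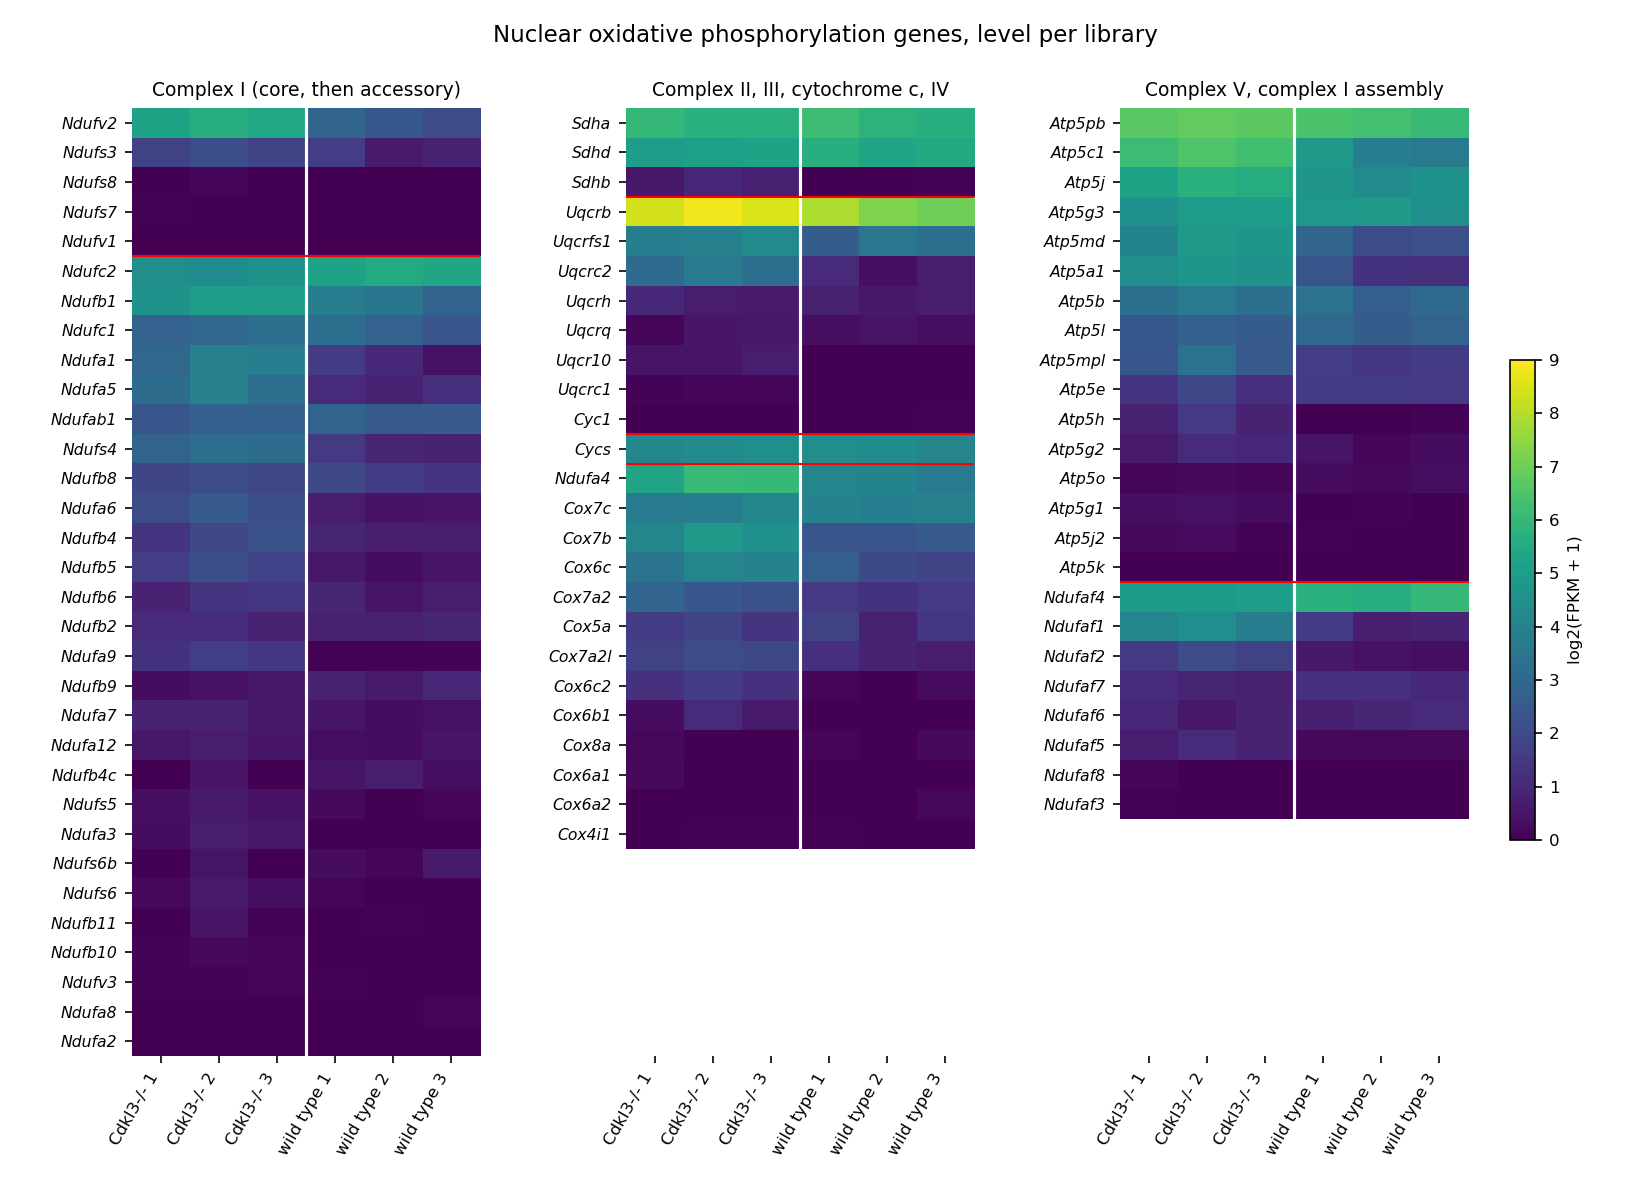
Level of each of the 81 members, as log2(FPKM + 1), in 3 libraries labelled Cdkl3-/- (left of the white line) and 3 labelled wild type (right). Red lines separate complex I core from accessory subunits, complex II, III, cytochrome c and IV, and complex V from complex I assembly factors. Within each group genes are ordered by mean level, and Uqcrb, at 337 to 447 FPKM in Cdkl3-/- and 129 to 236 FPKM in wild type libraries, is the brightest row.

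The genes were compared with limma on log2(FPKM + 1), fitted over all 5673 rows that reached 1 FPKM in 3 or more libraries, and a gene was called where its adjusted p was under 0.05. Of the 81 members 42 passed this filter, and 39 did not. Of the 42, 27 were higher in the libraries labelled Cdkl3-/-, 2 were lower (Ndufc2 and Ndufaf4) and 13 were not called. Calls were common throughout the table: 33.7% of all tested rows were higher and 20.4% lower, and the median log2 difference was 0.12 over all tested rows and 1.07 over the tested members. The filter favours genes that are high in 1 group. Ndufa6, Ndufa9, Ndufb4, Ndufb5, Cox6c2 and Ndufaf2 passed it through the Cdkl3-/- libraries alone. With no filter, 33 of 78 members were higher and 2 lower, against 15.4% and 5.09% of 20529 rows. Of the 39 members under the filter, 9 were higher in this fit, 27 were not called and 3 were at 0 throughout. The median log2 difference was then 0.33 over the members and 0.03 over all rows. With a filter on the mean over all 6 libraries, 25 of 41 members were higher and 2 lower, against 31.8% and 20.4% of 5532 rows.

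Whether the groups overlapped was counted over all 81 members. The 3 Cdkl3-/- libraries lay above all 3 wild type libraries for 42 members and below them for 4, where the shares over all 23021 usable rows were 24.7% and 8.98%. Among the 42 tested members these counts were 27 and 3, and among all tested rows the shares were 38% and 25.8%. The number of members at 1 FPKM or more was 44, 47 and 43 in Cdkl3-/- replicates 1 to 3, against 36, 29 and 32 in wild type replicates 1 to 3. The bars of calls by complex show that called members were spread over complexes I, III, IV and V and the assembly factors, and that complex II and cytochrome c had none among their tested members.

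**Figure D2:**
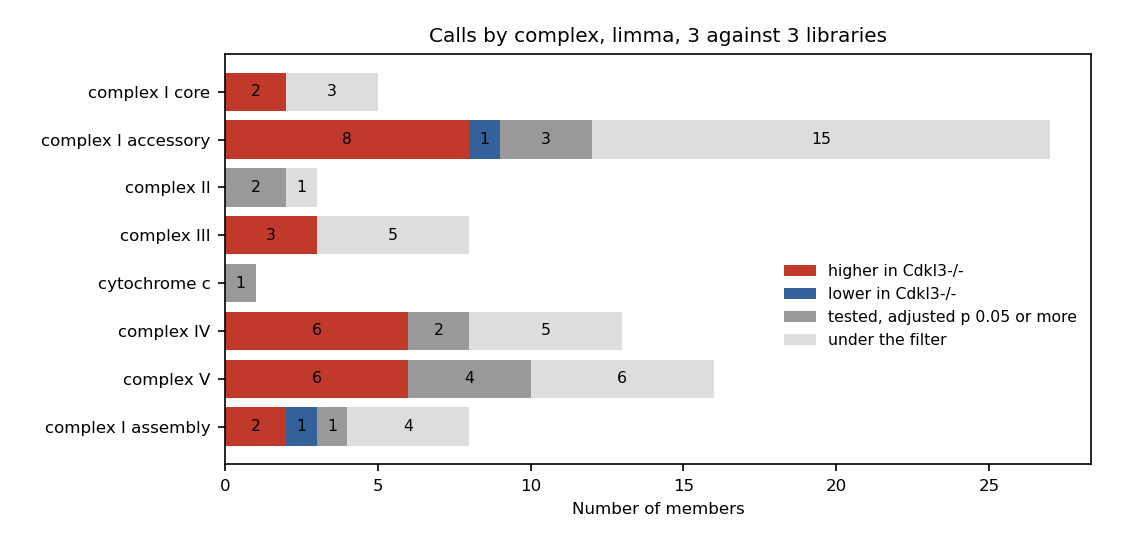
Number of members in each complex that were higher in Cdkl3-/- (red), lower (blue), tested and not called (grey) or under the filter (light grey), by limma in 3 against 3 libraries. Complex I accessory subunits are the largest group, with 8 higher, 1 lower, 3 not called and 15 under the filter.

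Promoters were searched for the short motifs of factors known to drive respiratory genes. NRF1 and the ETS factor GABP are transcription factors that bind the promoters of many subunit genes, and YY1 and the ERR receptors bind others. RefSeq promoters (GRCm38.p6, 250 bases before the first listed start) were found for 66 of the 81 members. The NRF1 core, GCGCATGC or its reverse GCATGCGC, stood in 9 of the 66 (13.6%), against 2.32% of 27025 promoters. The ETS core, CCGGAAG or CTTCCGG, stood in 11 (16.7%), against 7.05%. The YY1 core AAGATGGC or GCCATCTT was in 0 of the members and 1.59% of all promoters, and the ERR core TCAAGGTCA or TGACCTTGA in 1 member (1.5%) and 0.37% of all. Each promoter was searched on both strands. Of the 9 members with the NRF1 core 1 was higher in the libraries labelled Cdkl3-/- (Ndufa6), 1 lower (Ndufaf4), 2 not called (Cycs and Atp5l) and 5 under the filter. Of the 11 with the ETS core 2 were higher (Ndufaf1 and Ndufs3), 3 not called (Sdhd, Atp5e and Atp5l) and 6 under the filter. A match describes the letters in this window and is not a bound site. The promoters below are shown because they carry the same core and differ in their call, with the core in capitals. In Ndufaf4 both readings of the NRF1 core overlap.
Ndufa6, chr15:82354292-82354541, minus strand: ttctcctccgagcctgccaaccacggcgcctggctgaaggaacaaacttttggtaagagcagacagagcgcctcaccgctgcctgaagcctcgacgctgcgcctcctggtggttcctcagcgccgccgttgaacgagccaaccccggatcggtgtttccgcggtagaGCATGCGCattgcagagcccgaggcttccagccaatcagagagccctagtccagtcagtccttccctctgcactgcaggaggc
Cycs, chr6:50566570-50566819, minus strand: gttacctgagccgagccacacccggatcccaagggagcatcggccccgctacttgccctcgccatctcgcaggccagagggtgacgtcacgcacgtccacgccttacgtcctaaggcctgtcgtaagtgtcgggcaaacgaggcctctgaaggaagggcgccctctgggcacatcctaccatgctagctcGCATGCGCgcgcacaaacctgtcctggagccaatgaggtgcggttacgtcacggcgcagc
Ndufaf4, chr4:24897833-24898082, plus strand: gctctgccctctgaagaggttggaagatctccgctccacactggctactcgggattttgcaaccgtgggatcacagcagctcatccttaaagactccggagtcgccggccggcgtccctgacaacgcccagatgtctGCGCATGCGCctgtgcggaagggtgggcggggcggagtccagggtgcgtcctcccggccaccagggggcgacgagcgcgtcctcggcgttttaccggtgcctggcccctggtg
Ndufaf1, chr2:119662835-119663084, minus strand: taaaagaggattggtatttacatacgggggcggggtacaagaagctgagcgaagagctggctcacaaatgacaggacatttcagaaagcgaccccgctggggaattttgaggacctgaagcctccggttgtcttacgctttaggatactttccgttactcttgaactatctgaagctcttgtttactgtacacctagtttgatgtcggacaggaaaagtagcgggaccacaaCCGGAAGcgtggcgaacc
Sdhd, chr9:50603850-50604099, minus strand: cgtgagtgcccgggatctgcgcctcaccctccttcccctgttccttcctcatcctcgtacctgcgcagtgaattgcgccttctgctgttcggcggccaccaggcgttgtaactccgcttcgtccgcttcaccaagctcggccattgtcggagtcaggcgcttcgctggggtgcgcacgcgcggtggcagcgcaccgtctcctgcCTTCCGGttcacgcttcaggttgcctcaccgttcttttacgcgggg

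Complex I takes electrons from NADH. Among its 5 core subunits, Ndufv2 and Ndufs3 passed the filter and both were higher in the libraries labelled Cdkl3-/-. Ndufv2, an iron-sulfur protein of the NADH-oxidising module, was at 36.6, 48.3 and 40.8 FPKM in the Cdkl3-/- libraries and at 6.62, 4.58 and 3.26 FPKM in the wild type libraries. All Cdkl3-/- values lay well above the wild type ones, at 41.9 ± 5.95 and 4.82 ± 1.69 FPKM (SD, n = 3 each), a ratio of 8.70. The log2 difference was 2.91 with an SE of 0.24 (adjusted p = 0.00012, limma). Ndufs3, which lies where electrons reach coenzyme Q, was at 2.43, 3.47 and 2.58 FPKM in the Cdkl3-/- libraries and at 2.12, 0.586 and 0.808 FPKM in the wild type libraries. Its wild type replicate 1 lay close under the lowest Cdkl3-/- value, and the log2 difference was 0.87 with an SE of 0.26 (adjusted p = 0.023). The call of Ndufs3 was lost without Cdkl3-/- replicate 2 (adjusted p = 0.070), without wild type replicate 2 (0.081) and without wild type replicate 3 (0.082). It was also lost with median centring (0.054), quantile normalization (0.098), rescaling without mitochondrial transcripts (0.081) and no filter (0.071). After removal of the trend on GC content and length (described below) the log2 difference was 0.16 (adjusted p = 0.59). Over its 16 alternatives the adjusted p ran from 0.0026 to 0.59. The other core subunits were near or at the floor. Ndufs8 was at 0.0783 FPKM in Cdkl3-/- replicate 2 and listed at 0 elsewhere, and Ndufs7 at 0.0475 FPKM in Cdkl3-/- replicate 1 and listed at 0 elsewhere.

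Accessory subunits stabilise complex I and take part in its assembly, and the list holds 27, with the gene copies Ndufb4c and Ndufs6b counted. Of these 12 passed the filter, 8 were higher in the libraries labelled Cdkl3-/-, 1 was lower and 3 were not called. Ndufa9, at the joint of the matrix and membrane arms, was at 1.49, 2.17 and 1.69 FPKM in the Cdkl3-/- libraries and at 0.0396, 0.0685 and 0.0698 FPKM in the wild type libraries. The wild type values stood for a few reads each, and the log2 difference of 1.39 with an SE of 0.13 (adjusted p = 0.00018) understates the ratio of the means, 30.1. Ndufa5, next to the coenzyme Q site, was at 7.98, 14.2 and 8.63 FPKM in the Cdkl3-/- libraries and at 1.10, 0.817 and 1.33 FPKM in the wild type libraries. The groups did not overlap, and the log2 difference was 2.40 with an SE of 0.23 (adjusted p = 0.00020). Ndufa6, whose promoter is printed above, belongs to the LYR family of small proteins that bind the acyl carrier protein. It was at 3.21, 4.93 and 3.43 FPKM in the Cdkl3-/- libraries and at 0.647, 0.354 and 0.380 FPKM in the wild type libraries, a log2 difference of 1.72 with an SE of 0.18 (adjusted p = 0.00027).

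Ndufs4, whose loss causes a Leigh-like disease in mice, was at 6.29, 8.44 and 7.99 FPKM in the Cdkl3-/- libraries and at 1.79, 0.972 and 0.830 FPKM in the wild type libraries. The groups lay far apart, with a log2 difference of 1.98 and an SE of 0.21 (adjusted p = 0.00027). Ndufb1, of the membrane arm, was at 23.1, 31.9 and 31.7 FPKM in the Cdkl3-/- libraries and at 13.2, 10.4 and 6.36 FPKM in the wild type libraries, a log2 difference of 1.48 with an SE of 0.26 (adjusted p = 0.0024). The annotation used for lengths names this gene Ndufb1-ps. Ndufa1, a small X-linked subunit of the membrane arm, was at 6.81, 14.3 and 12.8 FPKM in the Cdkl3-/- libraries and at 1.99, 1.03 and 0.350 FPKM in the wild type libraries. It had the largest log2 difference among the accessory subunits, 2.55 with an SE of 0.35 (adjusted p = 0.00072). Ndufb5 and Ndufb4 were the remaining higher members, with log2 differences of 1.41 and 1.05. After removal of the trend on GC content and length (described below), the call of Ndufb4 was lost, at 0.32, and the log2 differences that moved by most among the others were 0.60 for Ndufb1, 0.83 for Ndufa9, 0.97 for Ndufa6, 1.48 for Ndufa5 and 1.59 for Ndufa1. These 5 were still called.

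Ndufc2 went the other way. This membrane-arm subunit, with the highest mean over the 6 libraries among the 27 accessory subunits, was at 20.6, 19.9 and 23.5 FPKM in the Cdkl3-/- libraries and at 36.7, 44.7 and 38.0 FPKM in the wild type libraries. Every Cdkl3-/- value lay below every wild type value, at 21.3 ± 1.91 and 39.8 ± 4.31 FPKM (SD, n = 3 each), and the log2 difference was -0.87 with an SE of 0.16 (adjusted p = 0.0028). It was -1.83 after removal of the GC and length trend. Its partner of the same arm, Ndufc1, was at 6.03, 7.15 and 8.66 FPKM in the Cdkl3-/- libraries and at 8.43, 6.16 and 4.12 FPKM in the wild type libraries. These ranges overlapped, and the difference was not called (adjusted p = 0.47). The mitochondrial acyl carrier protein Ndufab1 was at 4.28, 5.74 and 5.94 FPKM in the Cdkl3-/- libraries and at 6.52, 4.90 and 5.02 FPKM in the wild type libraries (adjusted p = 0.88), and Ndufb8 was not called either (adjusted p = 0.16).

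Of the 15 accessory subunits under the filter, Ndufb6 had the highest mean, at 0.866, 1.61 and 1.70 FPKM in the Cdkl3-/- libraries and at 0.969, 0.406 and 0.667 FPKM in the wild type libraries. Ndufb9 lay lower in the Cdkl3-/- libraries without overlap, at 0.237, 0.343 and 0.544 FPKM against 0.808, 0.579 and 1.04 FPKM in wild type, and was not called in the fit with no filter (adjusted p = 0.099). Ndufa3 was at 0.239, 0.618 and 0.513 FPKM in the Cdkl3-/- libraries and listed at 0 in each wild type library. Ndufb10 was at 0.0670, 0.166 and 0.123 FPKM in the Cdkl3-/- libraries and also listed at 0 in each wild type library. Both were called higher in the fit with no filter (adjusted p = 0.018 for Ndufa3 and 0.027 for Ndufb10). Reads of Ndufb4 and Ndufb4c, and of Ndufs6 and Ndufs6b, may be shared between near-identical copies, so those values are uncertain.

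Complex II oxidises succinate and links the tricarboxylic acid cycle to the chain. Its subunits Sdha and Sdhd were tested, and neither was called. Sdha, the flavoprotein that holds the active site, was at 63.3, 52.2 and 51.7 FPKM in the Cdkl3-/- libraries and at 72.8, 55.7 and 50.8 FPKM in the wild type libraries. The ranges overlapped, with a log2 difference of -0.09 and a 95% interval of -0.53 to 0.35 (adjusted p = 0.72). Sdhd, a membrane anchor whose promoter is printed above, was at 31.7, 32.8 and 36.7 FPKM in the Cdkl3-/- libraries and at 49.3, 39.3 and 43.7 FPKM in the wild type libraries. All 3 Cdkl3-/- values lay below the wild type values, but the log2 difference of -0.37 with an SE of 0.16 missed the threshold (adjusted p = 0.084). It became a lower call after median centring (adjusted p = 0.0077), after rescaling without mitochondrial transcripts (0.010) and after removal of the GC and length trend (0.00070), and over its 17 alternatives the adjusted p ran from 0.00070 to 0.19. The iron-sulfur subunit Sdhb was at 0.510, 0.994 and 0.719 FPKM in the Cdkl3-/- libraries and at 0, 0.0184 and 0.0437 FPKM in the wild type libraries. It lay under the filter and was called higher in the fit with no filter (adjusted p = 0.0083). Sdha was at least 50.8 FPKM in all 6 libraries, so subunits of 1 complex were listed at levels far apart.

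Complex III passes electrons from coenzyme Q to cytochrome c. All 3 of its tested subunits were higher in the libraries labelled Cdkl3-/-, and 5 of 8 lay under the filter. Uqcrc2, a core protein of the matrix side, was at 7.89, 12.3 and 8.43 FPKM in the Cdkl3-/- libraries and at 1.09, 0.306 and 0.651 FPKM in the wild type libraries. The ratio of the means was 14, and the log2 difference was 2.65 with an SE of 0.23 (adjusted p = 0.00014). Its partner Uqcrc1 was at 0.0690, 0.0917 and 0.118 FPKM in the Cdkl3-/- libraries and listed at 0 in each wild type library. Uqcrb, a small subunit needed for assembly, was at 337, 447 and 361 FPKM in the Cdkl3-/- libraries and at 236, 153 and 129 FPKM in the wild type libraries. The groups did not overlap, with a log2 difference of 1.18 and an SE of 0.26 (adjusted p = 0.0058). The call was lost after rescaling without mitochondrial transcripts (adjusted p = 0.051), and the adjusted p ran from 0.0021 to 0.051 over 17 alternatives.

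Uqcrfs1, the Rieske iron-sulfur protein that carries electrons out of coenzyme Q, was at 13.4, 14.1 and 18.4 FPKM in the Cdkl3-/- libraries and at 5.35, 10.6 and 8.46 FPKM in the wild type libraries. The log2 difference was 0.87 with an SE of 0.25 (adjusted p = 0.019). The call was lost without Cdkl3-/- replicate 3 (adjusted p = 0.062) and with no filter (0.058). It was also lost after median centring (0.095) and after rescaling without mitochondrial transcripts (0.10). After removal of the GC and length trend the log2 difference was 0.10 (adjusted p = 0.78). Over 17 alternatives the adjusted p ran from 0.016 to 0.78. Cyc1, the cytochrome c1 that receives those electrons, was at 0.0454 FPKM in wild type replicate 3 and listed at 0 in every other library. Uqcr10 was at 0.419, 0.433 and 0.641 FPKM in the Cdkl3-/- libraries and listed at 0 in each wild type library. In the fit with no filter Uqcr10 and Uqcrc1 were called higher (adjusted p = 0.0062 and 0.014), whereas Uqcrh and Uqcrq were at or under 0.989 FPKM with overlapping groups. Cycs, the somatic cytochrome c that shuttles electrons between complexes III and IV, was at 17.6, 19.5 and 21.5 FPKM in the Cdkl3-/- libraries and at 21, 19.9 and 16.2 FPKM in the wild type libraries. The groups overlapped fully, and the 95% interval of the log2 difference was -0.35 to 0.43 (adjusted p = 0.87).

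Complex IV reduces oxygen to water. Of its 13 nuclear members 8 passed the filter, 6 were higher in the libraries labelled Cdkl3-/- and 2 were not called. Cox7b, an X-linked small subunit, was at 16.7, 27.2 and 22.7 FPKM in the Cdkl3-/- libraries and at 4.14, 4.35 and 4.95 FPKM in the wild type libraries. The groups lay far apart, with a log2 difference of 2.06 and an SE of 0.20 (adjusted p = 0.00022). Ndufa4, named for complex I but found in complex IV, was at 36.9, 65.9 and 64.8 FPKM in the Cdkl3-/- libraries and at 16.2, 15.6 and 12.1 FPKM in the wild type libraries. Its log2 difference was 1.83 with an SE of 0.25 (adjusted p = 0.00077). Cox6c was at 10.0, 15.9 and 15.2 FPKM in the Cdkl3-/- libraries and at 5.48, 2.92 and 2.67 FPKM in the wild type libraries, a log2 difference of 1.67 with an SE of 0.27 (adjusted p = 0.0015). Its close copy Cox6c2 was at 1.41, 1.97 and 1.46 FPKM in the Cdkl3-/- libraries and at 0.120, 0 and 0.212 FPKM in the wild type libraries, and reads of the pair may be shared. The difference of Cox6c2 was called (adjusted p = 0.00036) and was lost after removal of the GC and length trend (adjusted p = 0.12, the highest over 15 alternatives, with 0.00036 the lowest). Cox7c, by contrast, was at 11.7, 12.7 and 16.4 FPKM in the Cdkl3-/- libraries and at 14.7, 13.8 and 14.1 FPKM in the wild type libraries, with a 95% interval of the log2 difference of -0.47 to 0.32 (adjusted p = 0.74). Cox5a, which sits on the matrix side, was not called either (adjusted p = 0.37).

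Several complex IV subunits come in tissue isoforms. Cox7a2, the form found in liver, was at 6.56, 4.45 and 3.69 FPKM in the Cdkl3-/- libraries and at 1.85, 1.5 and 1.81 FPKM in the wild type libraries. It was called higher (log2 difference 1.09, SE 0.20, adjusted p = 0.0029). The related Cox7a2l was at 2.32, 3.13 and 2.84 FPKM in the Cdkl3-/- libraries and at 1.31, 0.849 and 0.595 FPKM in the wild type libraries (log2 difference 0.98, SE 0.18, adjusted p = 0.0028). Both calls were lost after removal of the GC and length trend, with adjusted p of 0.71 for Cox7a2 and 0.26 for Cox7a2l. Over 16 alternatives each, the adjusted p ran from 0.0028 to 0.71 and from 0.0025 to 0.26. The liver form Cox6a1 was at 0.174 FPKM in Cdkl3-/- replicate 1 and listed at 0 in the other 5 libraries, and the heart and muscle form Cox6a2 was at 0.144 FPKM in wild type replicate 3 and listed at 0 in the other 5. The broadly expressed Cox4i1 reached at most 0.0483 FPKM, Cox8a at most 0.158 FPKM and Cox6b1 at most 1.18 FPKM. Cox6b1 was listed at 0 in each wild type library and was not called in the fit with no filter (adjusted p = 0.054). With Cox6a1, Cox6a2, Cox4i1 and Cox8a at or near the floor, the isoform choice of these subunits could not be read. Cox4i2, Cox6b2, Cox7a1 and Cox8b had no row among the members, so Cox7a2 could not be set against Cox7a1.

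Complex V makes ATP. Of its 16 members 10 passed the filter, 6 were higher in the libraries labelled Cdkl3-/- and 4 were not called. The catalytic head is made of alpha and beta subunits around a gamma shaft. Atp5a1, the alpha subunit, was at 20.8, 25.7 and 23.0 FPKM in the Cdkl3-/- libraries and at 4.03, 1.48 and 1.33 FPKM in the wild type libraries. Its log2 difference, 2.97 with an SE of 0.30 (adjusted p = 0.00022), was the second largest of the tested members. Atp5c1, the gamma subunit, was at 70.9, 91.4 and 76.0 FPKM in the Cdkl3-/- libraries and at 28, 13.6 and 12.0 FPKM in the wild type libraries, a log2 difference of 2.18 with an SE of 0.30 (adjusted p = 0.00077). Atp5b, the beta subunit, was at 8.71, 12.4 and 8.86 FPKM in the Cdkl3-/- libraries and at 9.37, 5.40 and 7.49 FPKM in the wild type libraries. These overlapped and were not called, with a 95% interval of the log2 difference of -0.13 to 0.92 (adjusted p = 0.17). Alpha and gamma were thus called and beta was not, and whether the 3 subunits differ in their response was not tested.

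Among the stalk and membrane subunits, Atp5pb, subunit b of the outer stalk, was the highest, at 103, 113 and 105 FPKM in the Cdkl3-/- libraries and at 86.1, 78.1 and 67.1 FPKM in the wild type libraries. The log2 difference was 0.48 with an SE of 0.17 (adjusted p = 0.041). The call was lost with no filter, median centring, quantile normalization and rescaling without mitochondrial transcripts. It was kept after removal of the GC and length trend, at 1.16 (adjusted p = 0.0020). The call also rested on single libraries. The adjusted p was 0.067, 0.12 and 0.093 without Cdkl3-/- replicates 1, 2 and 3 in turn, and 0.086 and 0.13 without wild type replicates 2 and 3. Over 17 alternatives it ran from 0.0020 to 0.73. Atp5j, coupling factor F6 of the same stalk, was at 36.4, 52.9 and 46.7 FPKM in the Cdkl3-/- libraries and at 24.8, 19.2 and 23.2 FPKM in the wild type libraries (log2 difference 0.98, SE 0.19, adjusted p = 0.0038). Its call was lost after removal of the GC and length trend (adjusted p = 0.060), with a range of 0.0027 to 0.060 over 17 alternatives. Atp5md, a small membrane subunit that helps the synthase pair up, was at 15.7, 27.8 and 25.5 FPKM in the Cdkl3-/- libraries and at 6.70, 3.23 and 3.62 FPKM in the wild type libraries. The groups lay far apart, with a log2 difference of 2.13 and an SE of 0.29 (adjusted p = 0.00075). Atp5mpl was the sixth member called higher, with a log2 difference of 1.24, and its call was lost after removal of that trend, at 0.35.

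The rotor ring of the ATP synthase is built of subunit c, which 3 genes encode as the same mature protein. Of these Atp5g3 carried most of the signal, at 22.2, 29.4 and 31.0 FPKM in the Cdkl3-/- libraries and at 27.1, 28 and 21.2 FPKM in the wild type libraries. It was not called (adjusted p = 0.67), but became a lower call after removal of the GC and length trend, with a log2 difference of -0.51. Atp5g2 was at 0.584, 1.12 and 1.01 FPKM in the Cdkl3-/- libraries and at 0.431, 0.111 and 0.233 FPKM in the wild type libraries. Atp5g1 was at 0.307, 0.314 and 0.229 FPKM in the Cdkl3-/- libraries and at 0, 0.0586 and 0.0199 FPKM in the wild type libraries. Both of these lay above wild type without overlap and under the filter, and both were called higher in the fit with no filter (adjusted p = 0.041 for Atp5g2 and 0.012 for Atp5g1). Of the remaining members, Atp5l and Atp5e were not called, though Atp5e was lower after removal of the trend, at -0.76, and Atp5l after median centring, quantile normalization and rescaling. Atp5h reached 1.81 FPKM and was called higher with no filter (adjusted p = 0.014), and Atp5o and Atp5j2 stayed at or under 0.248 FPKM.

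The 8 assembly factors of the list build complex I and are not part of it. Ndufaf1, which helps join the membrane arm, was at 16.6, 20.2 and 13.2 FPKM in the Cdkl3-/- libraries and at 2.03, 0.699 and 0.814 FPKM in the wild type libraries. At 16.7 ± 3.50 and 1.18 ± 0.740 FPKM (SD, n = 3 each), a ratio of 14.1, it had the largest log2 difference of all tested members, 3.05 with an SE of 0.26 (adjusted p = 0.00014). Ndufaf2, which acts late in assembly, was at 1.88, 3.13 and 2.38 FPKM in the Cdkl3-/- libraries and at 0.522, 0.352 and 0.246 FPKM in the wild type libraries (log2 difference 1.32, SE 0.17, adjusted p = 0.00063), and 0.86 after removal of the GC and length trend. Ndufaf5, under the filter, was called higher with no filter (adjusted p = 0.013). Ndufaf4 fell. It works with Ndufaf3 early in assembly and was at 29.0, 29.2 and 32.4 FPKM in the Cdkl3-/- libraries and at 52.7, 47.2 and 63.5 FPKM in the wild type libraries. The groups did not overlap, and the log2 difference was -0.82 with an SE of 0.17 (adjusted p = 0.0046). After removal of the GC and length trend it was -0.33 (adjusted p = 0.12), and over 17 alternatives the adjusted p ran from 0.0013 to 0.12. Its partner Ndufaf3 was at 0.0449 FPKM in Cdkl3-/- replicate 1 and listed at 0 elsewhere. Ndufaf7, a mitochondrial methyltransferase, was at 1.18, 0.888 and 0.791 FPKM in the Cdkl3-/- libraries and at 1.29, 1.37 and 1.00 FPKM in the wild type libraries and was not called (adjusted p = 0.29). It became a lower call after median centring (0.027) and after quantile normalization (0.013), in a range of 0.013 to 0.57 over 16 alternatives. The plot of differences sets these 2 directions side by side.

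**Figure D3:**
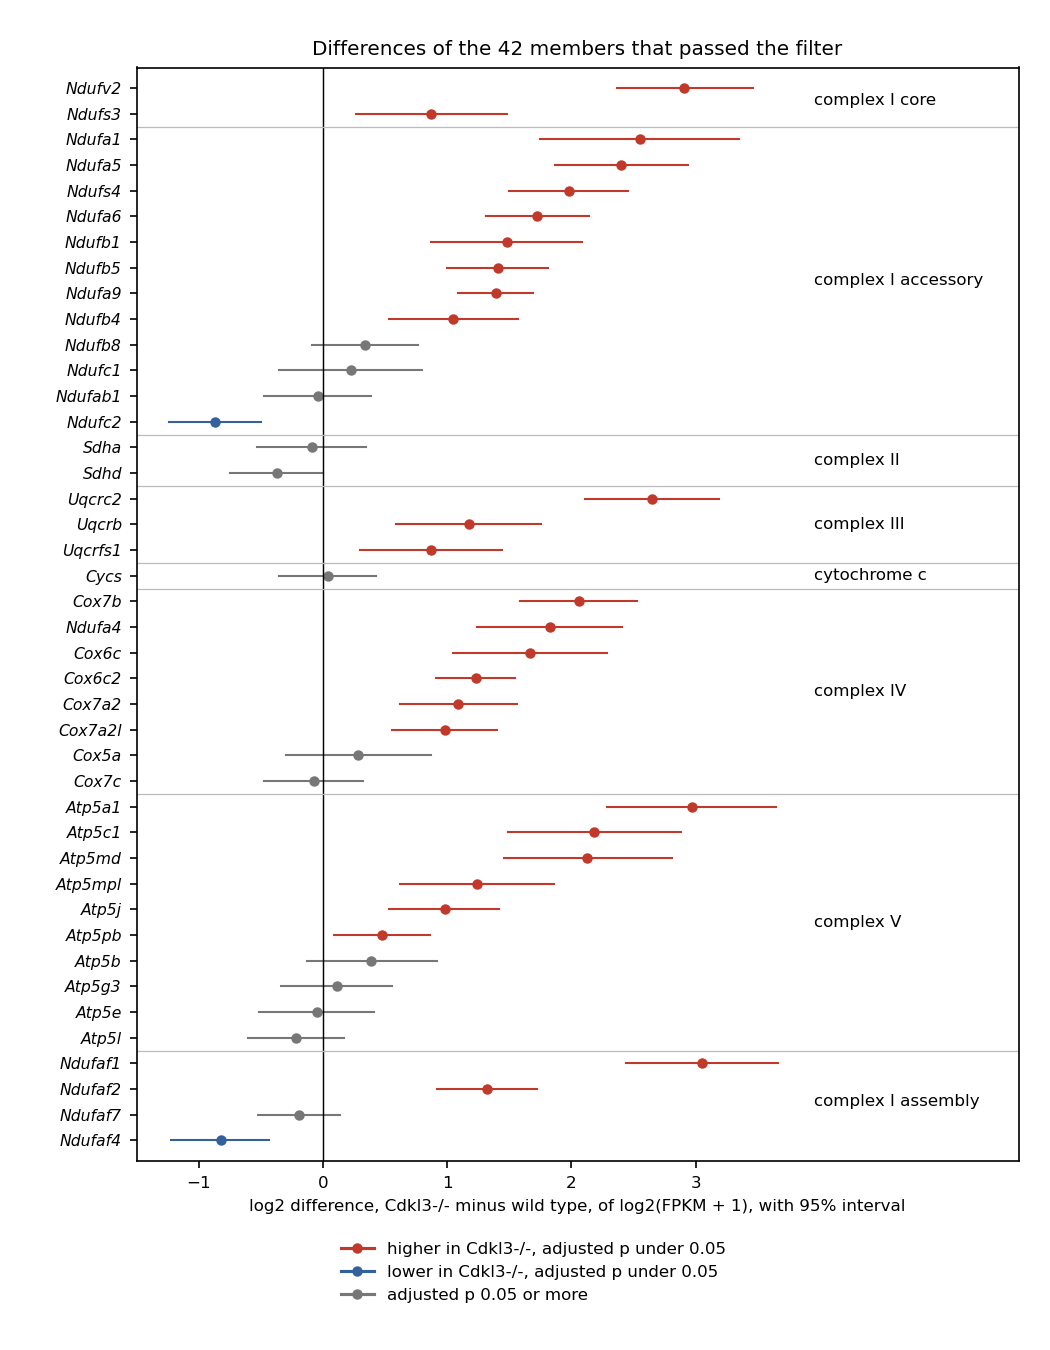
Log2 difference, Cdkl3-/- minus wild type, of log2(FPKM + 1) for the 42 members that passed the filter, with 95% intervals from limma (3 against 3 libraries), by complex. Red marks 27 members higher in Cdkl3-/-, blue 2 lower and grey 13 not called, from 3.05 for Ndufaf1 to -0.87 for Ndufc2.

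The libraries of a group differed among themselves in a shared way. Among the 27 higher members, Cdkl3-/- replicate 2 was the highest of its group for 24 and Cdkl3-/- replicate 1, the library with the kidney transcript, the lowest for 25. Wild type replicate 1 was the highest of its group for 22. The mean log2(FPKM + 1) over all 81 members was 1.95, 2.20 and 2.07 in Cdkl3-/- replicates 1 to 3 and 1.56, 1.37 and 1.38 in wild type replicates 1 to 3. Over all usable rows it was 0.81, 0.86 and 0.85 in the Cdkl3-/- libraries and 0.74, 0.70 and 0.72 in the wild type libraries. Of the FPKM outside mitochondrial transcripts, the members made up 0.685, 0.905 and 0.602% in Cdkl3-/- replicates 1 to 3. In wild type replicates 1 to 3 they made up 0.626, 0.501 and 0.442%, so by this share the groups overlapped. Without Cdkl3-/- replicate 1, 26 members were higher and 2 lower.

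Levels of the members followed the GC content of their transcripts. Of 17 members under 45% GC 15 had a mean of at least 1 FPKM (88.2%), of 23 members from 45 to 50% GC 15 did (65.2%), of 28 from 50 to 55% GC 10 (35.7%), and of 12 at 55% GC or more 1 (8.33%). Over all usable rows with a GC value the shares were 37.0, 26.7, 12.6 and 3.79%. Spearman's rho between level and GC over 80 members was -0.61, -0.62 and -0.61 in Cdkl3-/- replicates 1 to 3 and -0.60, -0.59 and -0.58 in wild type replicates 1 to 3. It is given as a description, since members share each library. Cyc1, at 61.4% GC, and Cox6a1, at 62.7%, are examples at the floor, while Uqcrb at 40.4% and Atp5pb at 37.0% led the list. Between the difference and GC content rho was 0.15 over the 42 tested members and -0.18 over 77 members with no filter, against 0.36 over 5605 tested rows and 0.22 over 19941 rows with no filter. After the trend of each library on GC content and length was removed, 19 members were higher and 4 lower, against 34.4% and 17.4% of 5605 rows. The median log2 difference was then 0.38 over the members and 0.20 over all rows. What part GC content has in the levels or calls was not tested further.

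**Figure D4:**
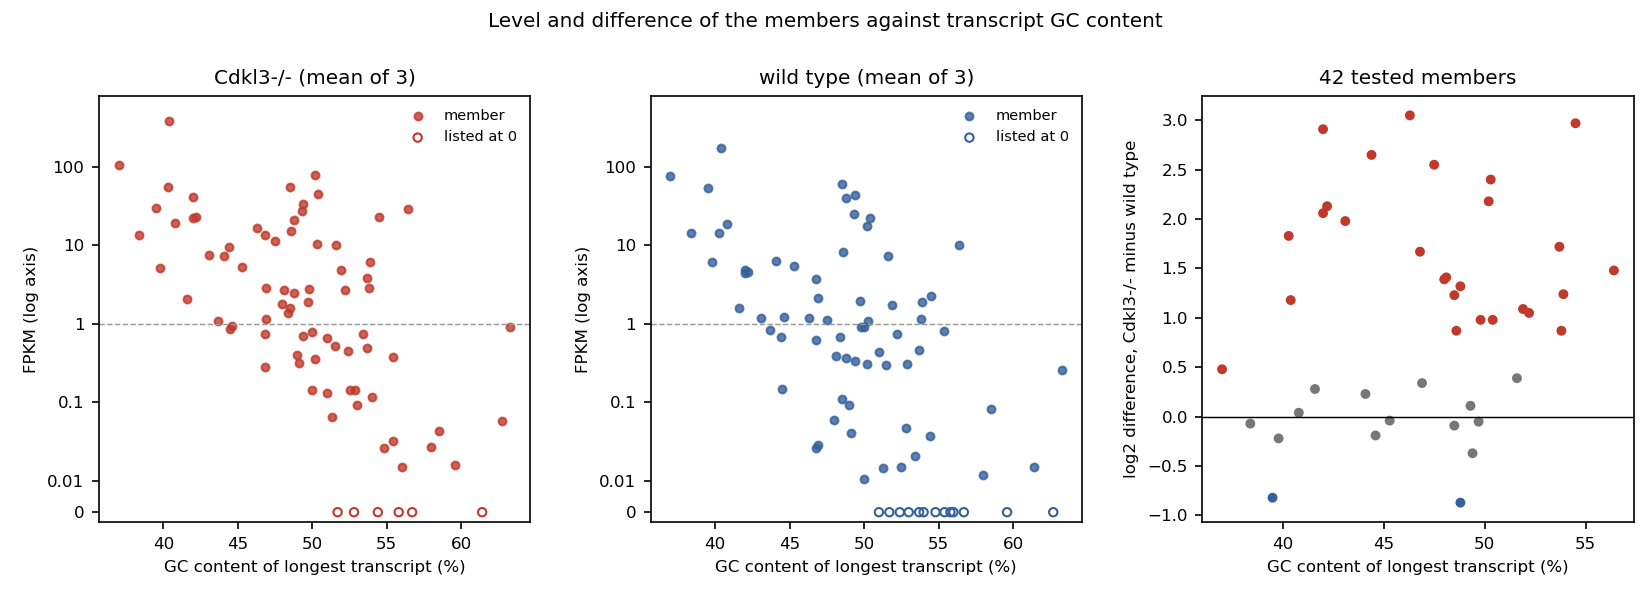
Mean FPKM (log axis, 0 drawn at the foot) against GC content of the longest transcript for 80 members in Cdkl3-/- (left) and wild type libraries (middle), and log2 difference against GC content for the 42 tested members (right; red higher, blue lower, grey not called). The dashed line is 1 FPKM, which 1 of 12 members at 55% GC or more reached as a mean over the 6 libraries.

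The mitochondrial genome encodes 13 further subunits of complexes I, III, IV and V. Their summed FPKM in complex I was 173805, 179129 and 176940 in the Cdkl3-/- libraries and 226708, 256522 and 234465 in the wild type libraries, so all 3 Cdkl3-/- values lay lower. Singly, mt-Nd2 and mt-Nd3 were called lower, mt-Nd4l and mt-Nd5 higher, and mt-Nd1, mt-Nd4 and mt-Nd6 were not called. The 32 nuclear members of complex I summed to 130, 178 and 162 FPKM in the Cdkl3-/- libraries and to 87.7, 80.6 and 67.6 FPKM in the wild type libraries, so here all 3 lay higher. In complex IV both sums lay higher in the Cdkl3-/- libraries. The 3 mitochondrial members summed to 128033, 125367 and 106924 FPKM in the Cdkl3-/- libraries and to 102587, 89040 and 69676 FPKM in the wild type libraries. Most of this was mt-Co1, at 103730 to 123631 FPKM in the Cdkl3-/- and 65754 to 93039 FPKM in the wild type libraries. By limma mt-Co1 was called higher (adjusted p = 0.038), mt-Co2 lower (0.031) and mt-Co3 was not called (0.86). With no filter mt-Co1 and mt-Co2 were not called either (0.079 and 0.095). The 13 nuclear members summed to 88.1, 135 and 129 FPKM in the Cdkl3-/- libraries and to 46.4, 39.8 and 38.4 FPKM in the wild type libraries. In complex III the nuclear sum, of which Uqcrb made up most, was 360, 475 and 390 FPKM in the Cdkl3-/- libraries and 244, 165 and 140 FPKM in the wild type libraries. In complex V it was 291, 375 and 330 FPKM in the Cdkl3-/- libraries and 198, 158 and 146 FPKM in the wild type libraries. Nuclear members made up 6.60 to 10.8% of the complex V sum in the Cdkl3-/- libraries and 2.51 to 5.91% in the wild type libraries. In complexes I, III and IV they stayed under 1% in every library. Of the 13 mitochondrial transcripts 3 were higher, 4 lower and 6 not called, where 33.7% of all tested rows were higher and 20.4% lower. With no filter 2 were higher and 3 lower, against 15.4% and 5.09% of all rows. These counts are given as a description, and no test was made of the sums by complex.

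**Figure D5:**
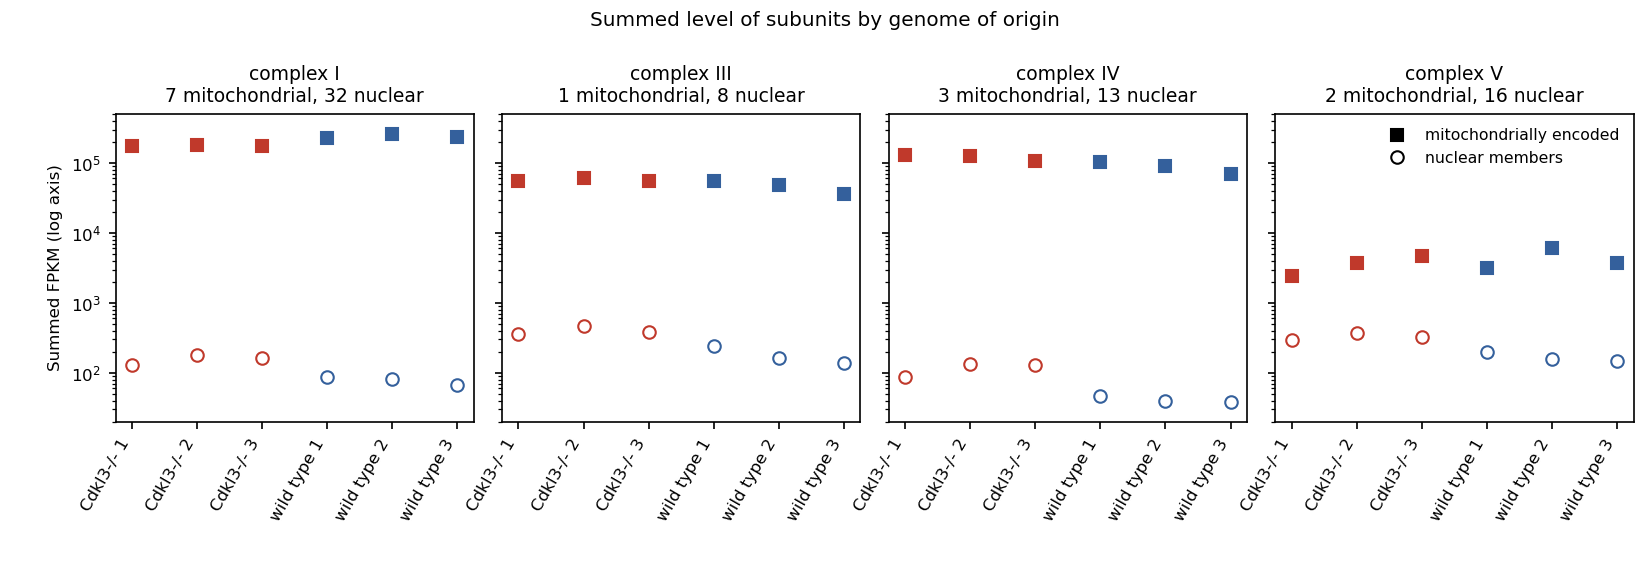
Summed FPKM (log axis) of mitochondrially encoded subunits (squares) and nuclear members (open circles) of complexes I, III, IV and V in 3 libraries labelled Cdkl3-/- (red) and 3 labelled wild type (blue). The nuclear sums lie higher in every Cdkl3-/- library in each complex, and the mitochondrial sum of complex I lies lower, at 173805 to 179129 against 226708 to 256522 FPKM.

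Other genes of the pathway were taken from lists chosen with earlier results of these data known. Of 39 further assembly factors with a usable row, 15 passed the filter, 6 were higher and 2 lower, and with no filter 15 were higher and 1 lower. Over all tested rows 33.7% were higher and 20.4% lower, and with no filter 15.4% and 5.09% of all rows. Dmac1, a complex I assembly factor, was at 2.48, 3.45 and 3.28 FPKM in the Cdkl3-/- libraries and at 0.599, 0.722 and 0.132 FPKM in the wild type libraries (adjusted p = 0.00072). It was under 1 FPKM in every wild type library, so it and Atpaf1 passed the filter through the Cdkl3-/- libraries alone. Lrpprc, which stabilises mitochondrial mRNAs, was at 4.77, 4.72 and 3.65 FPKM in the Cdkl3-/- libraries and at 1.45, 0.728 and 1.29 FPKM in the wild type libraries (adjusted p = 0.00084). The 2 lower ones were Sdhaf2 and Sdhaf3, both assembly factors of complex II. Sdhaf3 was at 2.76, 3.09 and 3.41 FPKM in the Cdkl3-/- libraries and at 5.23, 6.65 and 7.16 FPKM in the wild type libraries (adjusted p = 0.0042), and Sdhaf2 had a log2 difference of -0.63 (adjusted p = 0.022), not called with no filter (adjusted p = 0.053). Both were named after their values were seen.

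Of 16 tricarboxylic acid cycle genes with a row, which feed the chain, 11 passed the filter (Cs through the Cdkl3-/- libraries alone), 7 were higher and 1 lower, and with no filter 8 were higher and 1 lower. For these and the next lists, the shares over all tested rows were 33.7% higher and 20.4% lower, and 15.4% and 5.09% with no filter. Sucla2, a subunit of succinyl-CoA synthetase, was at 50.4, 55 and 58.8 FPKM in the Cdkl3-/- libraries and at 13.1, 12.0 and 11.4 FPKM in the wild type libraries (log2 difference 2.08, SE 0.15, adjusted p = 7.8e-05). Pdha1, a subunit of pyruvate dehydrogenase, was at 15.5, 15.4 and 21.2 FPKM in the Cdkl3-/- libraries and at 4.88, 4.81 and 5.09 FPKM in the wild type libraries (adjusted p = 0.00031). Dld, the dehydrogenase subunit that several of these enzymes share, was at 85.2, 72.1 and 90.9 FPKM in the Cdkl3-/- libraries and at 150, 240 and 220 FPKM in the wild type libraries (log2 difference -1.27, SE 0.22, adjusted p = 0.0022). Of 8 other donors of electrons to coenzyme Q 4 passed the filter, 3 were higher (Etfdh, Chdh and Gpd2) and 1 was not called, and with no filter Gpd2 was not called (adjusted p = 0.079). Etfdh, which takes electrons from fatty acid oxidation, was at 22.6, 39.9 and 25.4 FPKM in the Cdkl3-/- libraries and at 4.52, 2.65 and 3.26 FPKM in the wild type libraries (log2 difference 2.74, SE 0.25, adjusted p = 0.00017). Of 11 coenzyme Q synthesis genes 2 passed the filter, with Pdss1 higher and Coq3 lower. Pdss1 was under 1 FPKM in every wild type library and passed through the Cdkl3-/- libraries alone.

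Carriers and regulators were called in shares near those of all tested rows, 33.7% higher and 20.4% lower, so their counts are given as a description. Of 8 carriers and channels of adenine nucleotides, phosphate and the outer membrane, 6 passed the filter, Vdac1 and Vdac3 were higher and Slc25a5 lower. Slc25a5, the adenine nucleotide translocase of most tissues, was at 57.4, 65.4 and 59.6 FPKM in the Cdkl3-/- libraries and at 133, 135 and 109 FPKM in the wild type libraries (log2 difference -1.03, SE 0.17, adjusted p = 0.0016). Of 19 regulators of mitochondrial gene expression 11 passed the filter, 4 were higher (Tfam, Mterf2, Gabpb1 and Gabpb2) and 3 lower (Ppargc1a, Yy1 and Mterf3, the last not called with no filter, adjusted p = 0.062). With no filter 7 regulators were higher and 2 lower, against 15.4% and 5.09% of all rows. Tfam, which packages mitochondrial DNA and starts its transcription, was at 11.2, 13 and 12.2 FPKM in the Cdkl3-/- libraries and at 6.01, 4.77 and 3.96 FPKM in the wild type libraries (adjusted p = 0.0013). Ppargc1a, the coactivator known to raise respiratory gene expression, was at 4.16, 2.92 and 4.64 FPKM in the Cdkl3-/- libraries and at 8.18, 9.67 and 6.89 FPKM in the wild type libraries (adjusted p = 0.0060). Of 5 uncoupling proteins 0 passed the filter. Ucp1, which marks brown fat, was at 0.961 FPKM in Cdkl3-/- replicate 3, at 0.0251 FPKM in wild type replicate 2 and listed at 0 in the other 4 libraries. The 10 striated muscle and brown fat markers with a row summed to 0.682, 0.144 and 11.8 FPKM in Cdkl3-/- replicates 1 to 3 and to 0.156 to 0.229 FPKM in the wild type libraries, and 8 of them were at 0 in at least 1 library.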

How the data were processed

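The submitters sequenced total RNA of frozen liver, per the labels' protocols, with HISAT2 and GRCm39 named by the submitters' processing notes. The sources used here do not give the counting tool or the strand setting. The deposited tables hold 1 FPKM value per gene and library, per the file headers. Identifier and symbol named the same gene in 0 of 24927 rows. With GENCODE M21 exon lengths taken by symbol, 98.85% of 43976 low values (up to 40 reads) were whole reads to within 0.15 read, against 30.03% by identifier and 35.64% by symbol in the opening block of chromosome 1 rows. Symbols were therefore taken as the names, and that block and 119 rows without a symbol were left out. In 1 table the header code differs from the sample's title, and the label was followed.

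The model was limma (version 3.58.1, under R 4.3.3, with trend and robust moderation) on log2(FPKM + 1), with genotype as the only term and Benjamini-Hochberg adjustment over all 5673 tested rows. Fold changes on this scale understate the change of low genes. The fit was also run on simulated data, with spread drawn independently for each gene. That setting lacks the spread shared by genes of a library, so no conclusion is drawn from it. As the labels do not tie each library to its own mouse, p-values reflect library-to-library spread, which may be technical. Tables and plots were made in Python 3.11.15 (pandas 2.3.3, matplotlib 3.10.9) and correlations with scipy 1.17.1. The members and lists were chosen with earlier results of these data known. Named were, in each complex, up to 4 tested members with the smallest adjusted p, the 2 with the highest mean, every member called lower and the complex IV isoforms, and up to 3 genes from each other list. Other members and genes were named after their values were seen. GC content was that of the longest M21 (GRCm38) transcript, found for 80 of the 81 members.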

Additional observations from a re-analysis of the deposited data

How the results depend on the processing

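The count of higher members, 27 of 42 tested, was 19 to 28 under all other settings that kept these 42 genes. It was 25 of 41 with a filter on the mean, 33 of 78 with no filter, and 13 of 20 with a filter of 10 FPKM in 3 libraries, where fewer genes were tested. The count of lower members, 2, became 5 with median centring and 4 each with quantile normalization, with rescaling to the non-mitochondrial rows and with removal of the GC and length trend (possible for 98.8% of tested rows). The causes were not tested. Median centring moved the median log2 difference of all tested rows to -0.16, quantile normalization to -0.13 and the rescaling to -0.21, against 0.12 as deposited. Higher and lower calls among all rows were then 1443 and 1891, 1427 and 1761, and 1315 and 1780, against 1911 and 1157. Leaving out each library in turn gave 25 to 28 higher members and 2 lower. Of the 30 members whose differences were followed singly, no called one changed direction. Of those not called, the log2 difference of Cycs (0.04) was -0.25 with median centring, -0.02 with quantile normalization, -0.34 with the rescaling, and -0.07 to 0.11 with a library left out (below 0 without Cdkl3-/- replicate 3 or wild type replicate 3). That of Cox7c (-0.07) was 0.08 with the GC and length trend removed and -0.21 to 0.02 with a library left out (above 0 without Cdkl3-/- replicate 1), and that of Sdha (-0.09) was -0.20 to 0.06 (above 0 without wild type replicate 1). Replicate numbers did not pair the libraries: deviations of same-numbered libraries correlated at -0.049, -0.096 and 0.181, and not every library correlated best with its own number. With a replicate block 25 members were higher and 2 lower, and Ndufs3 (adjusted p = 0.052) and Atp5pb (0.079) were no longer called. The pseudocount mattered for low genes: at 0.1 the log2 difference was 3.55 for Ndufa9, 3.16 for Cox6c2, 2.83 for Ndufa6 and 2.45 for Ndufaf2. The 39 members under the filter entered only the fit with no filter (Ndufb6 also the one with a filter on the mean), apart from 3 at 0 throughout.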
